A study of Homo sapiens with 8 samples.

Results

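The 42 genes described here encode the proteins that license and fire replication origins, copy and join DNA, supply its nucleotides and control entry into S phase. They were chosen by name: every deposited entry whose RefSeq accession belongs to one of the 42 symbols was taken, and the entries of a gene were summed. All 42 were found among 25503 genes with a symbol and no failed estimate, and all 42 had a mean of at least 1 FPKM (fragments scaled to transcript length and to mapped fragments) over the 8 libraries, as did 13116 genes in all. The 80 entries of these genes held 0 failed estimates; 21 genes had 1 entry and 21 had several.

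The cells were of H1, a long-established line of human embryonic stem cells, between passages 40 and 60, kept feeder-free and under puromycin. In the line shEXOSC3 doxycycline switches on a short hairpin RNA that targets EXOSC3, a core subunit of the RNA exosome, and in the line shNS a non-silencing hairpin. Each line was sequenced as total RNA without doxycycline and with doxycycline after 5 and after 7 days, which gave 8 groups of 1 library: shEXOSC3 without and with doxycycline on day 5, shNS without and with doxycycline on day 5, and the same 4 on day 7. Puromycin was in the medium of every group, and doxycycline was also given to shNS, so the shNS libraries show doxycycline without the EXOSC3 hairpin. The sources used here do not say whether a line was 1 clone or a pool. With 1 library per group no value below has a replicate error, and fewer cells in S phase and less RNA per cell cannot be told apart in bulk RNA.

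Origins are licensed when the origin recognition complex, CDC6 and CDT1 load the MCM helicase on DNA, and geminin (GMNN) binds CDT1 to keep an origin from being licensed again in the same cycle. The loaded helicase is activated by CDC45, MCM10 and the GINS complex, after which primase and polymerase alpha start each strand, polymerases delta and epsilon extend it on the PCNA clamp, and FEN1 and LIG1 finish the lagging strand. Many of these genes are transcribed under E2F factors as cells pass from G1 into S phase, a phase that takes up much of the short cycle of pluripotent stem cells.

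The knockdown was read from EXOSC3 itself, summed over its entries. On day 5, EXOSC3 read 25.2 FPKM without and 11.3 FPKM with doxycycline in shEXOSC3, against 27.3 and 27.8 FPKM in shNS. On day 7, EXOSC3 read 25.2 FPKM without and 12.3 FPKM with doxycycline in shEXOSC3, against 30.3 and 27.4 FPKM in shNS. The library labelled as knockdown thus held 45.0% of its untreated level on day 5 and 48.9% on day 7, against 101.8% and 90.6% in shNS. FPKM summed to between 675742 and 785419 per library, and the 3 most abundant transcripts took 23.8 to 27.6% of it on day 5 but 6.21 to 7.16% on day 7, so levels on the 2 days stand on different bases. Of 10 pluripotent stem cell markers 9 had a value, and all 9 reached 1 FPKM in every library, POU5F1, NANOG and SOX2 among them; their sum ran from 1885 to 2904 FPKM and was lower with than without doxycycline in both lines on both days. None (0) of 11 markers of differentiated lineages reached 1 FPKM in any library. Of 7 fibroblast markers 3 reached 1 FPKM on day 5 (COL1A1, COL1A2 and THY1) and 4 on day 7 (POSTN as well), while DCN and LUM were at 0 in each library. Their sum went from 98.2 to 134 FPKM with doxycycline in shEXOSC3 and from 97.0 to 105 FPKM in shNS on day 5, and from 208 to 225 FPKM and from 182 to 168 FPKM on day 7. Most of that sum was THY1, at 74.1 to 107 FPKM on day 5 and 143 to 197 FPKM on day 7. The part of such markers in the results below was not tested.

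The promoters of 4 genes are printed here, chosen because these genes lay at the ends of the range of differences. The part of promoter sequence in any difference was not tested. By the mean of the days, summed over entries, PRIM1 and POLE2 had the lowest difference between knockdown and shNS. POLA2 and TYMS had the highest. With its most abundant entry alone POLE2 was above 0 instead, at 0.34. Each promoter runs from 250 bases before to 50 after the RefSeq start site on GRCh38.p14, 5′ to 3′ on the strand of the gene: PRIM1 at chr12:56752274-56752573 on the minus strand, POLE2 at chr14:49688165-49688464 on the minus strand, POLA2 at chr11:65261712-65262011 on the plus strand and TYMS at chr18:657403-657702 on the plus strand. Capitals mark a match to an E2F word.
PRIM1: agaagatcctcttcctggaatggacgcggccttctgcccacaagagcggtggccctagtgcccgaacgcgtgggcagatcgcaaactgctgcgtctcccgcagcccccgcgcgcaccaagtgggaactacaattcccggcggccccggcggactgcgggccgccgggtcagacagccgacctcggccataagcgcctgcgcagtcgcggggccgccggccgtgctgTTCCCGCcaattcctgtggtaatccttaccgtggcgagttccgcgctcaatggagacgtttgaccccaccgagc
POLE2: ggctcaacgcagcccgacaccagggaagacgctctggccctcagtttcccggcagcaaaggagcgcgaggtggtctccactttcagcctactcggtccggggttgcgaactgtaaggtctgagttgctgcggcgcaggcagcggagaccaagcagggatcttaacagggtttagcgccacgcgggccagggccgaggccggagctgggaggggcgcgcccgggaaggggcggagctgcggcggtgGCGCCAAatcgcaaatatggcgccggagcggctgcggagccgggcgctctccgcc
POLA2: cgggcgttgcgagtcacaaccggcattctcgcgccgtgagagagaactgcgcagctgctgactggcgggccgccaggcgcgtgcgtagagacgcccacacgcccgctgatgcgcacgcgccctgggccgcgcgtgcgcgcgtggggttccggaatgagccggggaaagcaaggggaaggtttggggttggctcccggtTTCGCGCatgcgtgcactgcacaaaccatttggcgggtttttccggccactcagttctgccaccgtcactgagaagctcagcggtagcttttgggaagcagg
TYMS: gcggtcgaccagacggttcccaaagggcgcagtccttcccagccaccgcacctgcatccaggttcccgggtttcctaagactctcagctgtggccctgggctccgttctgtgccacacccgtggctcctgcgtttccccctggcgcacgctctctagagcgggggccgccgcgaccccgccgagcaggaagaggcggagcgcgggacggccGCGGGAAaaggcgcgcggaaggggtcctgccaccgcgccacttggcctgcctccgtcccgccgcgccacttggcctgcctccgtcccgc

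The E2F words searched on either strand were TTCCCGC as the first, TTGGCGC as the next, TTGCCGC after that and TTCGCGC as the last. A promoter entry was found for 36 of the 42 genes, and 25 of the 36 (69.4%) held at least 1 of these words, against 17.1% of 15843 protein-coding promoters of the same length and 21.5% of the 9710 promoters of genes tested here. The 11 without one were those of CCNE1, CDC45, FEN1, GMNN, MCM10, ORC6, POLD1, PRIM2, RRM2, SLBP and TK1. The 42 words found in 25 promoters began at a median of -23 bases from the start site. Some of them overlap, such as those at -22 and -19 in ORC1, so they are not all separate stretches. Those printed began at -24 in PRIM1, -5 in POLE2, -52 in POLA2 and -39 in TYMS. The letters CCAAT on either strand, which are read by NF-Y, were in 19 of 36 promoters (52.8%) against 36.4% of all and 37.3% of those of genes tested, and in PRIM1 they overlap the E2F word. The letters TTTGAA on either strand, a cell cycle homology region of genes of late cycle, were in 1 of 36 (2.78%), against 12.1% and 9.75%. A match of letters is a description and not a site of binding.

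The genes as a group were followed by their doxycycline ratio, log2((FPKM + 1) with doxycycline / (FPKM + 1) without) within a table, which makes differences of low genes look smaller. In shEXOSC3 on day 7, 35 of 42 ratios (83.3%) lay below 0, with a median of -0.29; the background was 50.6% of the 13116 genes with a median of -0.0038. In shNS on the same day 26 of 42 (61.9%) lay below 0, with a median of -0.05, against 50.2% of all genes. On day 5, shEXOSC3 had 23 of 42 (54.8%) below 0 with a median of -0.04, against 48.2% of all genes, and shNS had 13 of 42 (31.0%) with a median of 0.07, against 45.8%. Day 7 in the knockdown is thus the table in which most of these genes stood lower, though 0 of 42 ratios reached 1.5-fold lower. Few genes did so in all, 424 of 13116. The background also differed by level: among 6604 genes of at least 10 FPKM, a range that holds 38 of the 42, the background below 0 was 57.8% in shEXOSC3 and 40.5% in shNS on day 5, and 59.8% and 56.3% on day 7. The 42 genes together made up 0.276% of summed FPKM without and 0.228% with doxycycline in shEXOSC3 on day 7, against 0.285% and 0.269% in shNS. On day 5 those shares were 0.278% and 0.289% in shEXOSC3, and 0.268% and 0.274% in shNS. The group's share of the library was thus lower with doxycycline in both lines on day 7 and higher in both on day 5. The lines did not agree on day 5 by the summed FPKM of the 42 genes, which went from 2082 to 1965 in shEXOSC3 and from 2060 to 2148 in shNS. The summed FPKM of all entries went from 749721 to 680306 in shEXOSC3 on that day, so the share rose there as the total fell.

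**Figure D1:**
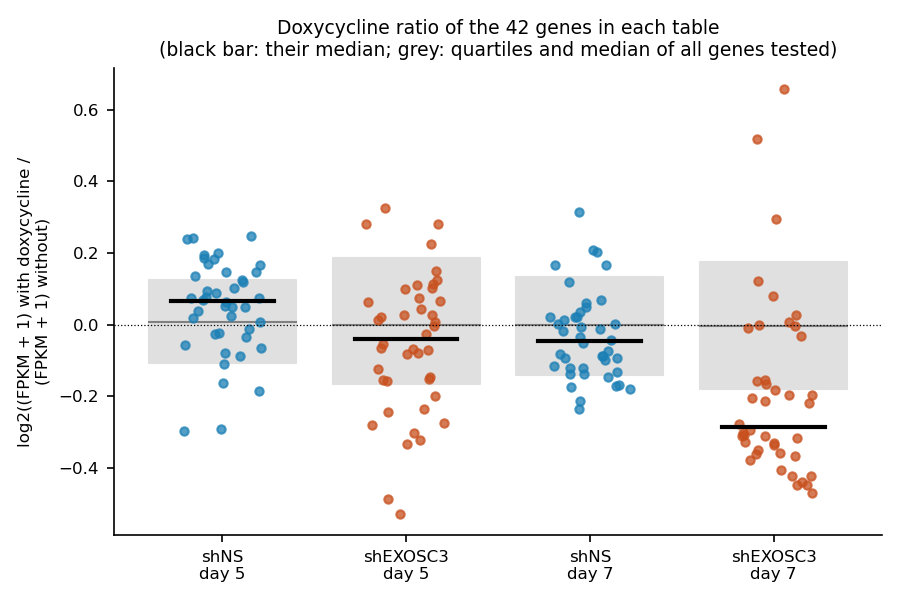
Doxycycline ratio (vertical axis, log2 of FPKM + 1 with over without doxycycline) of each of the 42 genes in the 4 tables, 1 point per gene. Black bars are the medians of the 42 genes, 0.07 and -0.04 in shNS and shEXOSC3 on day 5 and -0.05 and -0.29 on day 7, and grey boxes run between the quartiles of all 13116 genes tested; in shEXOSC3 on day 7 the median lies under the grey box, whose lower edge is at -0.18.

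The adjusted log2 difference was the shEXOSC3 ratio less the shNS ratio of that day. It had a median of -0.12 on day 5 and -0.19 on day 7 over the 42 genes, against -0.00076 and -0.01 over all genes tested. It was below 0 on both days for 24 of 42 (57.1%), against 28.9% of all genes, above 0 on both for 7 (16.7%), against 26% of all genes, and of mixed sign for 11. Among genes of at least 10 FPKM 37.4% lay below 0 on both days, with medians of -0.08 and -0.03. No gene (0 of 42) reached 1.5-fold lower on each of the 2 days, as 0.419% of all genes did, and none (0) reached 1.5-fold higher on each, as 1.04% did. On single days the genes past 1.5-fold were POLE2, lower on day 5 (background 2.73%), PRIM1, lower on day 7 (background 3.7%), and POLA2, higher on day 7 (background 5.81%). The doxycycline library of shEXOSC3 was the lowest of its 4 libraries for 18 of 42 genes on day 5 (42.9%, background 30.3%), for 34 on day 7 (81.0%, background 31.3%) and for the same 18 on both days (42.9%, background 16.1%). Those 18 were ORC1, ORC6, CDC6, GMNN, MCM2, MCM3, MCM10, GINS1, GINS2, RFC4, RPA2, RPA3, PRIM1, POLE2, FEN1, RRM1, E2F1 and SLBP. Such a rank, here and below, sets levels of separately made tables side by side, and no normalization shared by them is stated. On day 5 the shEXOSC3 doxycycline library had the smallest summed FPKM, 680306 against 749721 to 785419. In that library the 42 genes had their highest share of the day, 0.289% against 0.268 to 0.278%.

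With limma on the 4 ratios, which measures the difference between lines against the spread between days and not between replicates, no gene passed an adjusted p under 0.05: 0 of 42 and 0 of 13116 (0%), and 0 of 42 without the trend on expression. At an unadjusted p under 0.05, 5 of 42 genes (11.9%) were lower in the knockdown, against 2.74% of all genes, and 0 were higher: PRIM1, POLE2, GMNN, RPA2 and GINS1. Without the trend 3 of 42 reached that level, a count for which the share of all genes is not given here. With the day as a term, a fit added after seeing the data that pairs the lines by day, 2 did (PRIM1 and GMNN). In that fit 676 of 13116 genes did, so 2 of 42 is near the background. The direction of the group is therefore described by counts and medians, and no single gene of it passed a test.

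**Figure D2:**
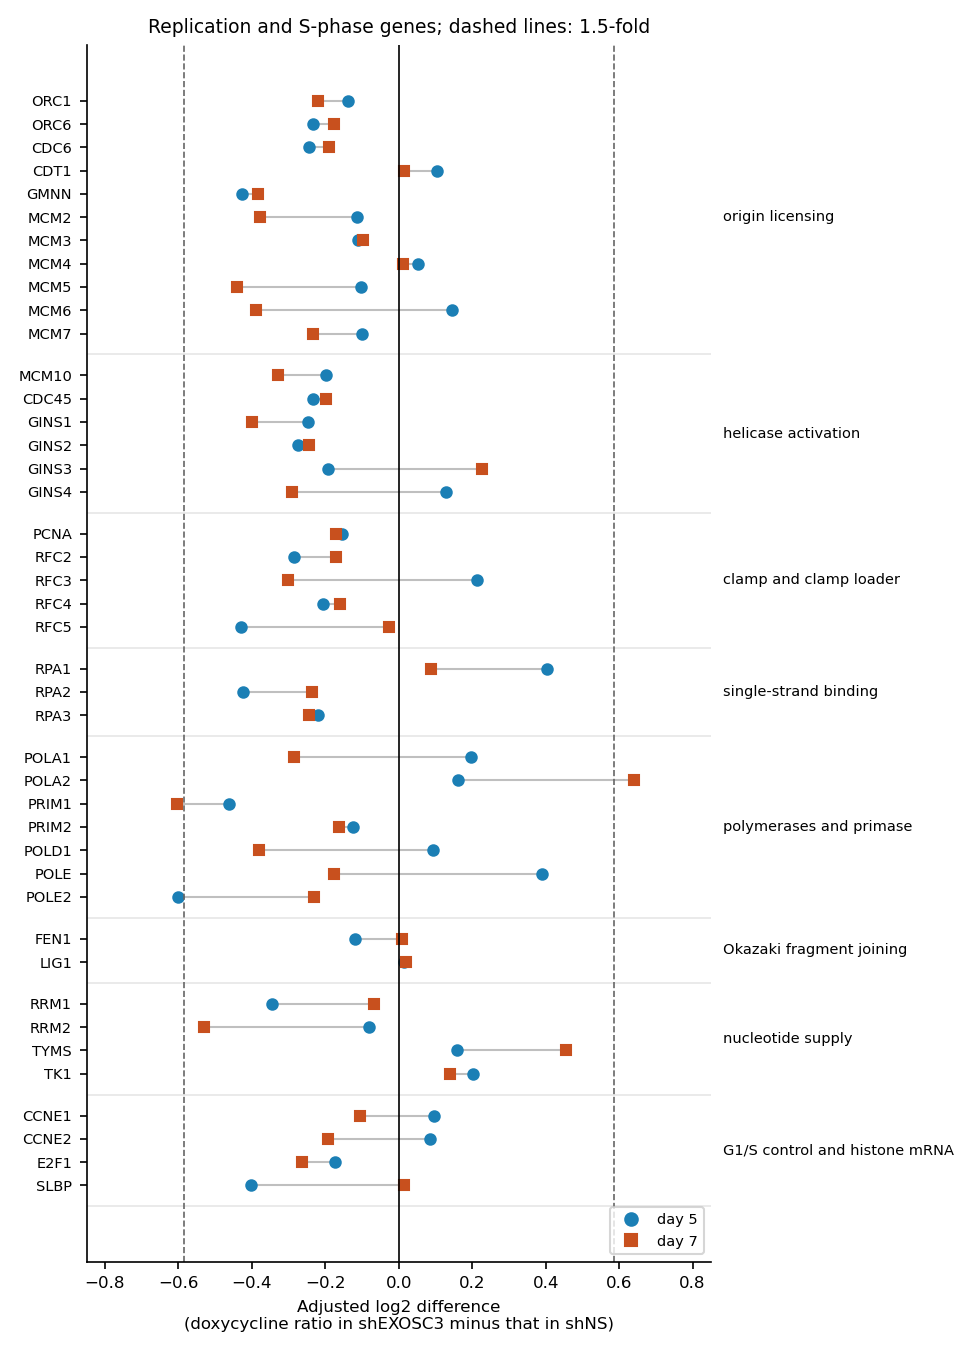
Adjusted log2 difference (horizontal axis, shEXOSC3 ratio less shNS ratio) of each of the 42 genes on day 5 (circles) and day 7 (squares), grouped by role, with 1 library behind each term. Dashed lines mark 1.5-fold; POLE2 on day 5, PRIM1 on day 7 and POLA2 on day 7 are the points past them, and 24 genes have both points left of 0.

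Among the 11 origin licensing genes the adjusted difference was below 0 on both days for 8 and above 0 on both for 2, with medians of -0.11 and -0.22. The one furthest from 0 by the mean of the days was GMNN, the inhibitor of relicensing (chromosome 6, 24775159 to 24786325 on hg19). On day 5, GMNN read 104 FPKM without and 82.4 FPKM with doxycycline in shEXOSC3, against 92.2 and 98.4 FPKM in shNS. On day 7, GMNN read 74.6 FPKM without and 58.3 FPKM with doxycycline in shEXOSC3, against 75.0 and 76.8 FPKM in shNS. The knockdown library was the lowest of the 4 on each day, while shNS was slightly higher with doxycycline on both days. The adjusted differences were -0.43 on day 5 and -0.38 on day 7, and limma gave -0.40 with a standard error of 0.110 (adjusted p = 0.747). This rests on the sum of 4 entries: with the most abundant entry alone the mean adjusted difference of GMNN was 0.06, so its direction depends on how reads were shared among its transcripts.

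The MCM2 to MCM7 genes encode the ring of the replicative helicase, and MCM3, MCM7 and MCM4 were, after PCNA, the most abundant of the 42 per length. Below, a pair of levels gives a line without and then with doxycycline, shEXOSC3 before shNS. MCM5 showed the widest gap of the ring on day 7. On day 5, MCM5 read 99.5 FPKM without and 103 FPKM with doxycycline in shEXOSC3, against 101 and 112 FPKM in shNS. On day 7, MCM5 read 49.2 FPKM without and 35.8 FPKM with doxycycline in shEXOSC3, against 55.0 and 54.7 FPKM in shNS. Its day 7 knockdown library held 72.8% of the untreated level while shNS was level, and on day 5 neither line was lower with doxycycline. MCM2, whose knockdown library was the lowest of its 4 on both days, was at 31.0 to 23.9 FPKM in shEXOSC3 on day 7 and 35.3 to 35.8 FPKM in shNS, after 75.7 to 74.2 FPKM and 78.0 to 83.0 FPKM on day 5, and adjusted differences of -0.11 on day 5 and -0.38 on day 7. MCM6 on day 7 was at 33.6 to 25.8 FPKM in shEXOSC3 and 36.9 to 37.5 FPKM in shNS, but its day 5 difference was above 0 (0.15 against -0.39 on day 7). MCM7 went from 151 to 114 FPKM in shEXOSC3 on day 7 and from 154 to 137 FPKM in shNS, where both lines were lower with doxycycline, and its differences were -0.10 on day 5 and -0.23 on day 7. On day 7 MCM3 was at 123 to 107 FPKM and 137 to 128 FPKM, with differences of -0.11 on day 5 and -0.10 on day 7. MCM4 had the values nearest 0 in the ring: it was at 117 to 119 FPKM in shEXOSC3 and 106 to 104 FPKM in shNS on day 5, and at 92.2 to 93.9 FPKM and 103 to 104 FPKM on day 7, with differences of 0.05 on day 5 and 0.01 on day 7.

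The loaders of the ring differed among themselves. CDC6, the ATPase that loads MCM with ORC, was at 40.9 to 40.8 FPKM in shEXOSC3 and 40.9 to 48.5 FPKM in shNS on day 5, and at 66.9 to 51.9 FPKM and 73.8 to 65.4 FPKM on day 7, with adjusted differences of -0.25 on day 5 and -0.19 on day 7. Doxycycline libraries of both lines were lower on day 7, that of shEXOSC3 by more. ORC1, the ATPase subunit of the origin recognition complex, was at 36.4 to 29.4 FPKM and 36.4 to 32.3 FPKM on day 5 and at 28.4 to 22.7 FPKM and 31.0 to 28.96 FPKM on day 7. Its differences were -0.14 on day 5 and -0.22 on day 7, and those of ORC6, another subunit, were -0.23 on day 5 and -0.18 on day 7. CDT1, the partner that geminin binds, had a difference near 0 on day 7: it was at 25.8 to 24.4 FPKM and 23.6 to 20.7 FPKM on day 5 and at 5.41 to 5.40 FPKM and 5.90 to 5.82 FPKM on day 7, with differences of 0.10 on day 5 and 0.02 on day 7. The inhibitor GMNN thus lay lower in the knockdown on both days, by the sum of its entries. The differences of its target CDT1 were above 0 since shNS fell by more with doxycycline, and CDT1 was not higher with doxycycline in shEXOSC3.

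Of the 6 helicase activation genes, 4 lay below 0 on both days and 0 above on both, with medians of -0.22 and -0.27. GINS1, a subunit of the GINS tetramer, had the lowest mean difference of these (chromosome 20, 25388323 to 25429191 on hg19). On day 5, GINS1 read 49.5 FPKM without and 40.5 FPKM with doxycycline in shEXOSC3, against 51.3 and 50.1 FPKM in shNS. On day 7, GINS1 read 46.3 FPKM without and 36.6 FPKM with doxycycline in shEXOSC3, against 43.2 and 45.4 FPKM in shNS. Its knockdown library lay below the other 3 on each day, by a margin wider than those 3 spanned. The differences were -0.25 on day 5 and -0.40 on day 7, and limma gave -0.32 with a standard error of 0.111 (adjusted p = 0.747). GINS2 was at 53.9 to 46.8 FPKM and 55.1 to 58.2 FPKM on day 5 and at 27.0 to 22.1 FPKM and 30.7 to 29.9 FPKM on day 7, with differences of -0.28 on day 5 and -0.24 on day 7. MCM10, a scaffold that activates the helicase, was at 20.2 to 14.5 FPKM in shEXOSC3 on day 7 and 23.2 to 21.3 FPKM in shNS, with differences of -0.20 on day 5 and -0.33 on day 7. CDC45, which joins MCM and GINS in the active helicase, spanned only 13.8 to 15.6 FPKM on day 5 and 13.6 to 15.7 FPKM on day 7, and its knockdown library was lowest on day 7 but not on day 5. The other GINS subunits were of mixed sign: GINS3 gave -0.19 on day 5 and 0.23 on day 7, and GINS4 gave 0.13 on day 5 and -0.29 on day 7. Of the 3 entries of GINS3, the most abundant (84.8% of its FPKM) gave -0.08 on day 5 and 0.007 on day 7. Its day 7 value of 0.23 came from a lesser entry that was near 0 FPKM without doxycycline in both lines. Subunits of this complex therefore differed in sign on day 5, and on day 7 only by GINS3.

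Among PCNA and the RFC2 to RFC5 subunits of its loader, 4 of 5 lay below 0 on both days and 0 above on both, with medians of -0.21 and -0.17. PCNA, the sliding clamp of the polymerases, was the most abundant of the 42 per length. On day 5, PCNA read 193 FPKM without and 197 FPKM with doxycycline in shEXOSC3, against 199.9 and 227 FPKM in shNS. On day 7, PCNA read 271 FPKM without and 219 FPKM with doxycycline in shEXOSC3, against 272 and 247 FPKM in shNS. On day 7 the knockdown library was the lowest of the 4 and shNS with doxycycline the next, while on day 5 the knockdown library lay inside the range of the others. Its differences were -0.16 on day 5 and -0.17 on day 7. RFC4, a loader subunit, was at 71.8 to 67.8 FPKM and 68.7 to 75.0 FPKM on day 5 and at 95.2 to 85.2 FPKM and 101 to 101 FPKM on day 7, with differences of -0.21 on day 5 and -0.16 on day 7. RFC5 was at 51.3 to 43.4 FPKM and 43.0 to 49.4 FPKM on day 5 and at 39.1 to 39.0 FPKM and 41.7 to 42.4 FPKM on day 7, with differences of -0.43 on day 5 and -0.03 on day 7. RFC2 gave -0.28 on day 5 and -0.17 on day 7, while RFC3 changed sign between days, from 0.21 to -0.30.

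The subunits of RPA, the complex that coats single-stranded DNA, split. RPA2, its middle subunit (chromosome 1, 28218036 to 28241308 on hg19), was low in the knockdown. On day 5, RPA2 read 55.1 FPKM without and 39.0 FPKM with doxycycline in shEXOSC3, against 51.6 and 49.3 FPKM in shNS. On day 7, RPA2 read 59.3 FPKM without and 47.0 FPKM with doxycycline in shEXOSC3, against 59.6 and 55.8 FPKM in shNS. The knockdown libraries held 70.7% and 79.3% of their untreated levels and were the lowest of their days. The differences of RPA2 were -0.42 on day 5 and -0.24 on day 7, and limma gave -0.33 with a standard error of 0.118 (adjusted p = 0.747). Of its 3 entries, 2 held nearly all of its FPKM in like amounts: NM_001297558 (50.2%) had differences of -0.37 on day 5 and -2.25 on day 7, and NM_002946 (49.0%) had -0.72 and 0.34, so by single entry the size and the day 7 sign depend on the division of reads. RPA3, the smallest subunit, was at 18.3 to 17.6 FPKM and 21.1 to 23.8 FPKM on day 5 and at 37.3 to 27.5 FPKM and 38.9 to 34.2 FPKM on day 7, with differences of -0.22 on day 5 and -0.24 on day 7. RPA1, the large subunit that holds most of the DNA contacts, went the other way: it was at 37.6 to 40.7 FPKM and 38.3 to 31.1 FPKM on day 5 and at 14.1 to 17.6 FPKM and 13.9 to 16.2 FPKM on day 7, with differences of 0.40 on day 5 and 0.09 on day 7. The RPA1 knockdown library was the highest of its 4 on each day.

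The 7 polymerase and primase genes held the widest differences in both directions, with medians of 0.09 on day 5 and -0.23 on day 7. PRIM1, the catalytic subunit of primase that lays RNA primers, was lowest of all 42 by the mean of the days (chromosome 12, 57125364 to 57146146 on hg19). On day 5, PRIM1 read 80.1 FPKM without and 66.0 FPKM with doxycycline in shEXOSC3, against 71.1 and 81.0 FPKM in shNS. On day 7, PRIM1 read 65.7 FPKM without and 48.2 FPKM with doxycycline in shEXOSC3, against 63.6 and 71.5 FPKM in shNS. Doxycycline libraries were lower than their untreated partners in shEXOSC3 and higher in shNS on both days, and the knockdown library was the lowest of its 4 each time. The adjusted differences were -0.46 on day 5 and -0.60 on day 7, the latter past 1.5-fold, and limma gave -0.53 with a standard error of 0.120 (adjusted p = 0.747). PRIM1 has 1 entry, so no division among its own transcripts bears on it. PRIM2, the large primase subunit, gave -0.12 on day 5 and -0.16 on day 7.

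POLE2, the second subunit of polymerase epsilon, lies on chromosome 14, 50110270 to 50155098 (hg19). On day 5, POLE2 read 17.4 FPKM without and 11.8 FPKM with doxycycline in shEXOSC3, against 16.0 and 16.8 FPKM in shNS. On day 7, POLE2 read 12.8 FPKM without and 10.1 FPKM with doxycycline in shEXOSC3, against 13.5 and 12.7 FPKM in shNS. The knockdown library was lowest on both days, clearly so on day 5. Its differences were -0.60 on day 5 and -0.23 on day 7, and limma gave -0.42 with a standard error of 0.136 (adjusted p = 0.747). The sum hides entries that disagree: with the most abundant of its 3 entries alone the mean difference of POLE2 was 0.34 against -0.42. POLE, the catalytic subunit, was at 14.5 to 17.9 FPKM and 16.0 to 14.8 FPKM on day 5 and 12.4 to 12.4 FPKM and 11.4 to 12.9 FPKM on day 7, and its difference changed sign from 0.39 to -0.18. POLD1, the catalytic subunit of polymerase delta, was likewise above 0 on day 5 and below on day 7 (0.09 and -0.38). So was POLA1, that of polymerase alpha (0.20 and -0.28). Of the 3 entries of POLD1, 2 held nearly all of its FPKM and disagreed. The larger (54.6%) gave 1.23 on day 5 and -1.40 on day 7, and the other (42.2%) gave -1.76 and -0.17.

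POLA2, the regulatory subunit that ties polymerase alpha to primase, had the highest mean of the days, 0.40 (chromosome 11, 65029323 to 65066156 on hg19). On day 5, POLA2 read 6.63 FPKM without and 7.92 FPKM with doxycycline in shEXOSC3, against 7.37 and 7.74 FPKM in shNS. On day 7, POLA2 read 3.54 FPKM without and 5.49 FPKM with doxycycline in shEXOSC3, against 4.81 and 4.33 FPKM in shNS. On day 7 the untreated shEXOSC3 library was the lowest of the 4 and the treated one the highest, so both ends of that ratio stand away from shNS. The differences were 0.16 on day 5 and 0.64 on day 7, and limma gave 0.40 with a standard error of 0.161 (adjusted p = 0.747). All its levels are under 10 FPKM, among the least abundant of the 42. That mean was 0.24 with a pseudocount of 5 FPKM and 0.16 with the doxycycline libraries set against each other across tables, under the 0.28 and 0.41 of TYMS in both cases. Subunits of the primase and polymerase alpha complex therefore lay on both sides of 0.

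The nucleotide supply genes were split evenly, with 2 of 4 below 0 on both days and 2 above. TYMS, the thymidylate synthase that makes dTMP, was the clearest of those above. On day 5, TYMS read 34.2 FPKM without and 36.8 FPKM with doxycycline in shEXOSC3, against 32.1 and 30.9 FPKM in shNS. On day 7, TYMS read 25.4 FPKM without and 40.7 FPKM with doxycycline in shEXOSC3, against 23.3 and 27.0 FPKM in shNS. On day 7 its knockdown library lay above the other 3, which spanned 23.3 to 27.0 FPKM, and it was the 1 gene of the 42 whose ratio in shEXOSC3 was at least 1.5-fold higher on day 7 (0.66 on the log2 scale, background 5.02%). The adjusted differences were 0.16 on day 5 and 0.45 on day 7, and limma gave 0.31 with a standard error of 0.230 (adjusted p = 0.758). The deposited locus, chromosome 18, 596998 to 712662 on hg19, also spans CLUL1 and ENOSF1, an antisense neighbour of TYMS, and without a stated counting strand their reads cannot be told apart. ENOSF1, looked up after the TYMS values were seen, was at 2.999 to 5.65 FPKM across the 8 libraries, with adjusted differences of -0.08 and 0.34.

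TK1, the salvage kinase for thymidine, was also above 0 on both days (0.20 and 0.14), with levels of 33.1 to 36.2 FPKM and 41.3 to 39.1 FPKM on day 5 and 14.7 to 14.8 FPKM and 18.8 to 17.0 FPKM on day 7; its 2 untreated shEXOSC3 libraries were the lowest of their days. The 2 subunits of ribonucleotide reductase, which makes deoxynucleotides, lay below 0 on both days. RRM2, the subunit whose level follows S phase, was at 33.9 to 35.6 FPKM and 32.8 to 36.4 FPKM on day 5 and at 23.7 to 16.8 FPKM and 27.1 to 28.3 FPKM on day 7, with differences of -0.08 on day 5 and -0.53 on day 7. RRM1 was at 84.4 to 67.3 FPKM and 79.9 to 81.2 FPKM on day 5 and 83.1 to 74.5 FPKM and 91.4 to 85.9 FPKM on day 7, with differences of -0.35 on day 5 and -0.07 on day 7. The subunits thus differed in day: RRM1 had its wider gap on day 5 and RRM2 on day 7. Of FEN1 and LIG1, which trim and seal Okazaki fragments, LIG1 was near 0 in the adjusted difference on both days (0.01 and 0.02). FEN1 gave -0.12 on day 5, about the median of the 42 genes, and 0.01 on day 7.

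Of the 4 genes of G1/S control and histone mRNA, 1 lay below 0 on both days and 0 above on both. That was E2F1, the activator of many of the others, which was at 11.1 to 10.5 FPKM and 11.4 to 12.3 FPKM on day 5 and 2.21 to 1.77 FPKM and 2.63 to 2.76 FPKM on day 7, with differences of -0.17 on day 5 and -0.26 on day 7. Its day 7 level is the lowest of the 42, and the 4 libraries of that day lie within 1 FPKM of each other. The E cyclins, which drive entry into S phase, changed sign between days, from 0.10 to -0.11 for CCNE1 and from 0.09 to -0.19 for CCNE2. SLBP, the stem-loop binding protein of histone mRNA, was at 35.2 to 31.5 FPKM and 31.7 to 37.8 FPKM on day 5; on day 7 both lines were lower with doxycycline, at 39.4 to 33.7 FPKM and 41.5 to 35.1 FPKM, with differences of -0.40 on day 5 and 0.02 on day 7.

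Levels also differed between the days in all groups. For 20 of the 42 genes every day 7 library lay below every day 5 library (47.6%, background 37.1%), for 8 every one lay above (19.0%, background 27.2%), and 14 overlapped. The widest gaps were in CDT1, which spanned 20.7 to 25.8 FPKM on day 5 and 5.40 to 5.90 FPKM on day 7, in E2F1, with 10.5 to 12.3 and 1.77 to 2.76 FPKM, and in POLD1, with 28.1 to 30.2 and 6.90 to 9.58 FPKM. In the other direction, CCNE2 went from 2.45 to 3.32 FPKM on day 5 up to 6.40 to 9.61 FPKM on day 7, and RFC3 from 22.1 to 27.6 up to 45.0 to 56.2 FPKM. These gaps were in both lines with and without doxycycline, and each was wider, in log2, than any adjusted difference of the 42. They come from separate tables and move with GC content, a property of the transcript: across 40 genes with a value (35.4 to 64.9% GC), the log2 difference between days had Pearson's r of -0.77 and Spearman's rho of -0.66 with GC, against -0.36 and -0.52 across 12784 of all genes tested. Genes are not independent replicates, and points share the 8 libraries. The adjusted difference, formed within tables, had r of 0.31 on day 5 and 0.28 on day 7 with GC across the same 40 genes, and rho of 0.29 and 0.33. Over all genes r was 0.09 and 0.07, and rho 0.23 and 0.18. The part of GC content in either difference was not tested.

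**Figure D3:**
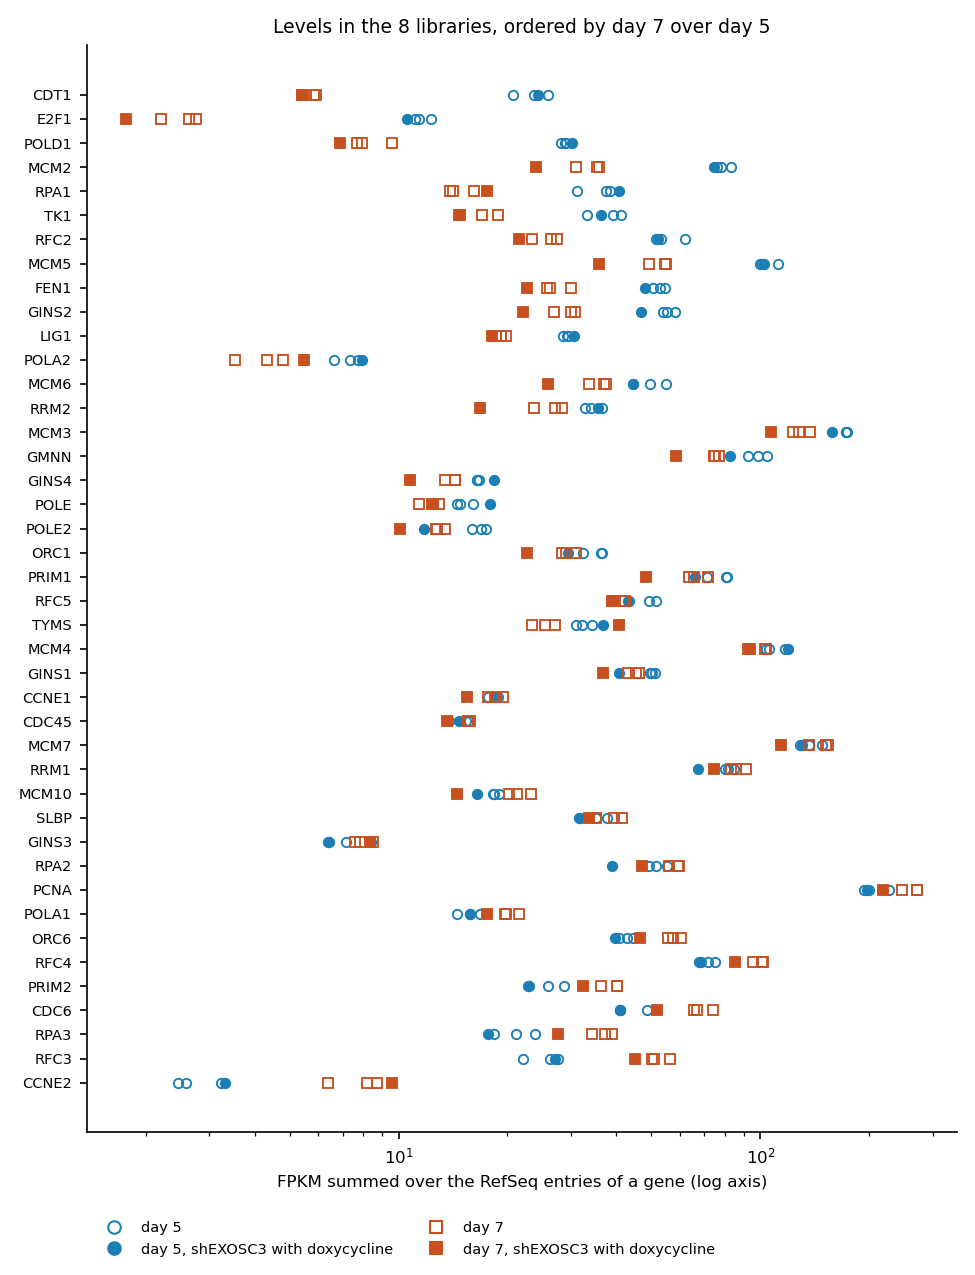
Level of each of the 42 genes (horizontal log axis, FPKM summed over the entries of a gene) in the 8 libraries, blue circles for day 5 and orange squares for day 7, filled for the shEXOSC3 doxycycline library and open for the other 3 of the day. Genes are ordered by day 7 over day 5: CDT1 and E2F1 at the top lie far lower on day 7, CCNE2 at the bottom higher, and the filled square is the lowest of its day for 34 genes.

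**Figure D4:**
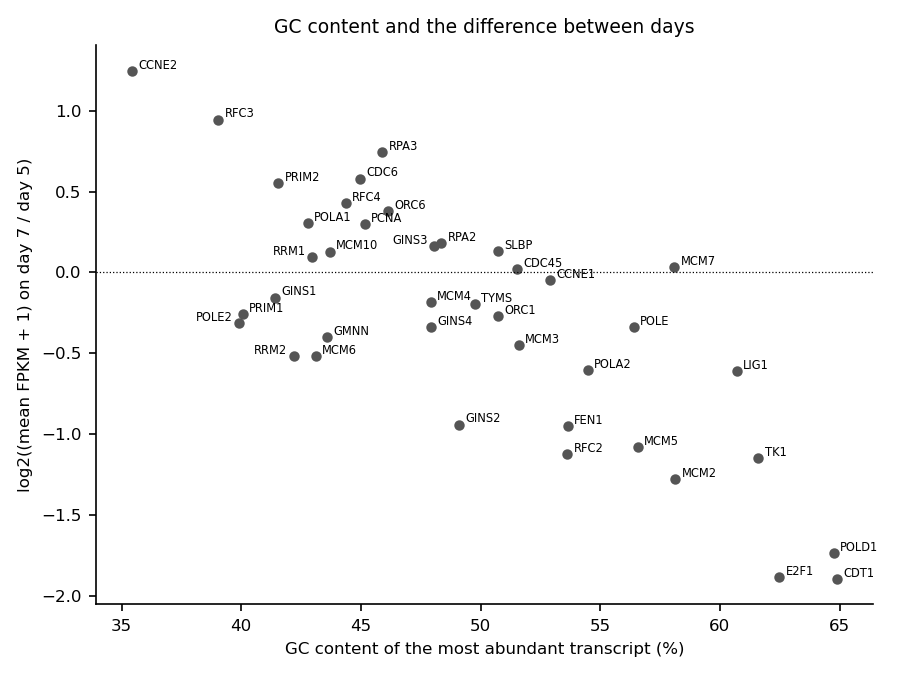
GC content of the most abundant transcript (horizontal axis, percent) against the log2 difference between the day means (vertical axis, FPKM + 1 on day 7 over day 5), 1 point for each of the 40 genes with a GC value. CDT1, E2F1 and POLD1, of high GC, lie lowest and CCNE2 and RFC3, of low GC, highest, with Pearson's r of -0.77.

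The rest of the pathway was read from 7 further lists of 83 genes, of which 79 had a mean of at least 1 FPKM. Together 38 of the 79 lay below 0 on both days by the adjusted difference (background 28.9%, or 37.4% of genes of at least 10 FPKM), 8 above (background 26%) and 33 were mixed, with medians of -0.07 and -0.18. By limma 0 of 79 passed an adjusted p under 0.05, and 4 reached an unadjusted p under 0.05, 3 lower (background 2.74%) and 1 higher (409 of 13116 genes). In shEXOSC3 on day 7, 55 of 79 ratios were below 0 (background 50.6%), with a median of -0.15. The counts of the single lists that follow are small, and those of licensing and firing and of chromatin assembly are near the background. Among 15 other licensing and firing genes 4 lay below 0 on both days and 2 above; the lowest were DONSON (-0.54 and -0.47), a replisome assembly factor, and DBF4 (-0.46 and -0.26), the activator of the CDC7 kinase, and the highest TICRR (0.47 and -0.03) and MCM9 (0.00 and 0.24). Among 15 other fork and polymerase genes 9 lay below and 0 above; the lowest were POLE4 (-0.42 and -0.37) and DSCC1 (-0.11 and -0.62), and the highest POLD4 (0.59 and -0.12) and TIMELESS (0.57 and -0.36), both of mixed sign. Of 8 genes of chromatin assembly and methyl maintenance 3 lay below and 0 above, with NASP, a histone chaperone, and ATAD2 lowest (-0.16 and -0.61 for NASP, -0.13 and -0.35 for ATAD2), and CHAF1B (0.22 and -0.04) and DNMT1 (0.22 and -0.18) highest.

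Of 7 other nucleotide genes 4 lay below 0 on both days and 1 above; the lowest were SAMHD1 (-0.31 and -0.39), a dNTP hydrolase, and UNG (-0.11 and -0.54), and the highest RRM2B (0.18 and 0.25) and DUT (0.33 and -0.23). Of 19 other G1/S and E2F control genes 9 lay below and 4 above; the lowest were E2F5 (-0.31 and -0.37) and CCNA2 (-0.46 and -0.20), the S-phase cyclin, and the highest RBL2 (0.26 and 0.14) and E2F7 (0.24 and 0.14). Of 12 genes of S-phase checkpoint and repair 9 lay below and 0 above; the lowest was CHEK1 (-0.25 and -0.39), the checkpoint kinase of stalled forks, and the highest were WEE1 (0.20 and -0.01) and ATR (0.03 and -0.07). Of 6 CDK inhibitors 3 reached the minimum. CDKN1A encodes p21, an inhibitor of cyclin-dependent kinases and of PCNA. By the adjusted difference it was the 1 gene of the 79 at least 1.5-fold higher on both days (background 1.04%). By the shEXOSC3 ratio alone 0 of the 79 were so, as 147 of 13116 genes were, and CDKN1A was lower with doxycycline in shNS. On day 5, CDKN1A read 29.3 FPKM without and 37.4 FPKM with doxycycline in shEXOSC3, against 27.0 and 19.6 FPKM in shNS. On day 7, CDKN1A read 20.4 FPKM without and 33.2 FPKM with doxycycline in shEXOSC3, against 14.8 and 9.93 FPKM in shNS. Its adjusted differences were 0.78 on day 5 and 1.21 on day 7, and limma gave 0.99 with a standard error of 0.156 (adjusted p = 0.747). CDKN1C gave 0.11 on day 5 and -0.73 on day 7 and CDKN1B -0.21 on day 5 and 0.05 on day 7.

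The authors' deposited tables test 1 library against 1 library for each entry. In the authors' deposited tables the lowest p of an entry of the 42 genes was 0.0331 (q = 0.765) for POLD1 in shEXOSC3 and 0.00375 (q = 0.58) for POLE2 in shNS on day 5. On day 7 the lowest p in the authors' deposited tables was 0.00325 (q = 0.651) for RFC2 in shEXOSC3 and 0.0182 (q = 0.603) for POLD1 in shNS. None (0) of these entries had a q under 0.05 in any of the 4 tables. Each p is of a single entry and not of the gene's sum. On day 5 the POLD1 entry went from 11.2 to 21.5 FPKM in shEXOSC3 and the sum from 28.1 to 30.2 FPKM. The POLE2 entry went from 5.98 to 13.4 FPKM in shNS and the sum from 16.0 to 16.8 FPKM. On day 7 the RFC2 entry went from 27.0 to 11.2 FPKM in shEXOSC3 and the sum from 27.4 to 21.5 FPKM.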

How the data were processed

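Per the submitters' processing notes, reads were handled with CASAVA 1.8, TopHat and Cufflinks on hg19 (GRCh37); for the last 2 the version, and for the counting the strand and normalization option, were not given in the sources used here. Per the file headers, the 4 deposited tables hold FPKM for 49235 RefSeq entries, 1 table for each line and day with the library pair of no doxycycline and doxycycline, and the authors' p-value and q-value for that pair. The depth of the libraries is unknown, so no interval is given. Columns without a sample numbered 0.

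From these values, entries were matched to symbols through a RefSeq table of GRCh38.p14 used for names (48147 had a single symbol), 164 entries had a failed estimate and their genes were left out, and FPKM were summed per gene. Genes with a mean of at least 1 FPKM were tested, ratios took a pseudocount of 1 FPKM, and a size call was 1.5-fold. The fit used limma 3.58.1 in R 4.3.3 on 4 ratios over all genes, with a trend, Benjamini-Hochberg adjustment and 2 residual degrees of freedom. In simulated data on 13116 genes it called 76 of 100 genes moved by 3 (log2) and 10 of 100 moved by 1. Because the days are time points, p-values set the difference between lines against the spread between days and not between replicates. Named genes were the 42, EXOSC3, CDKN1A, POU5F1, NANOG and SOX2, and the 2 highest and 2 lowest of each other list by the mean of the days; promoters were those of the 4 genes at the ends of the 42. Of the genes so named, 1 is not reported here. The 42 genes and all lists were chosen with earlier results of these data known. Alternatives were other pseudocounts, minimums, folds, transcript choice, centring, limma without trend or with a day term, treatment of failed entries, and doxycycline libraries set against each other across tables.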

Additional observations from a re-analysis of the deposited data

Results flagged for a closer look

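In 8 of the 42 genes both days of shEXOSC3 lay on one side of 0 by the doxycycline ratio and both days of shNS on the other. The difference between the lines was not tested for this pattern beyond the limma fit, in which none of the 42 genes passed (0 at an adjusted p under 0.05, 5 at an unadjusted p under 0.05). In 7 of them the shEXOSC3 ratios were below 0 and the shNS ratios above it, with mean adjusted log2 differences of -0.533 for PRIM1, -0.405 for GMNN, -0.247 for MCM2, -0.229 for RFC5, -0.218 for E2F1, -0.216 for CDC45 and -0.182 for RFC4. That is 16.7% of the 42 genes, against 655 of 13116 genes tested (4.99%). The 1 gene with the opposite pattern was TK1, at 0.172, or 2.38% of the 42 against 587 genes (4.48%). Several of these ratios lie within 0.05 of 0, so the sign of a single library pair decides them.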

How the results depend on the processing

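With 1 library per group no library could be left out of a group. The count of genes below 0 on both days by the adjusted difference was 24 of 42, and 21 to 28 over the alternatives run; limma called 0 of the 42 in each. With only the most abundant entry of each gene, the shEXOSC3 median on day 7 was -0.217 instead of -0.286, and 2 genes instead of 5 had an unadjusted limma p under 0.05; the mean adjusted differences were then 0.34 for POLE2, 0.06 for GMNN and -1.31 for RPA2. Without the trend 3 genes did. With the day as a term, which pairs the lines by day and leaves 1 residual degree of freedom, 2 did. In that fit 0 of 13116 genes were called and 676 had an unadjusted p under 0.05, a share near that of the 42. For the counts without the trend and with only the most abundant entry, the share of all genes is not given here. Setting the doxycycline libraries against each other across tables gave a median of -0.241 on day 7, -0.43 for PRIM1, -0.32 for GMNN and 0.16 instead of 0.40 for POLA2, which was 0.24 with a pseudocount of 5 FPKM; TYMS was then above POLA2, at 0.41 and 0.28. The cause was not tested. Of the other values, 91 counts and medians moved by less than 1.5 times or less than the SD between days, 0.048 for a median. A background of genes of at least 10 FPKM, like the day term chosen after seeing the data, had 37.4% below 0 on both days instead of 28.9%.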
